A study of Homo sapiens with 24 samples.

Results

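The genes described here are 10 members of the BCL2 family that set the balance between survival and death at the outer mitochondrial membrane: the survival genes BCL2, BCL2L1 and MCL1, the effectors BAX and BAK1, and the BH3-only genes BID, BAD, BIK, BBC3 and BCL2L11. They were chosen by name, with earlier results of these data known, and all 10 symbols matched a single Ensembl gene among the 58051 genes counted in all 24 libraries. In this family BAX and BAK1 form the pores that release cytochrome c, the survival proteins hold BAX and BAK1 in check, and the BH3-only proteins bind the survival proteins or activate the effectors directly. Epithelial tumours differ in which survival protein they lean on, and drugs that mimic BH3-only proteins are built on that dependence.

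The study compared 4 established human cancer cell lines, each a single model of its tumour type, without and with Ocoxin, a mixture of plant extracts (green tea, licorice and cinnamon), amino acids, minerals and vitamins. COAD is the colorectal line SW620, PAAD the pancreatic line BxPC-3, PRAD the prostate line LNCaP and TNBC the triple-negative breast line HCC-70. Each line had 3 control and 3 Ocoxin libraries after 48 h in medium with 1% serum, and the dilution of Ocoxin, set near the dose that lowered viability to its midpoint, was 1:700 in COAD and TNBC, 1:500 in PAAD and 1:50 in PRAD. Nothing in the labels says that the 3 libraries of a group came from separate experiments, so the p-values measure the spread between these libraries only. RNA was taken from cells that still adhered, so cells that had detached after dying were not measured, and these are mRNA counts that give no protein level, modification or cleavage. Total counts were 31265452 to 34397801 in COAD control and 25160757 to 29670036 in COAD Ocoxin, 31101178 to 34231106 in PAAD, 9063968 to 9520969 in PRAD and 36863490 to 39009959 in TNBC. The markers of LNCaP and SW620 were highest in their own lines, while those of BxPC-3 and HCC-70 were partly shared between these lines: KLK3 was at 377 to 410 CPM (counts scaled to library size) in PRAD, VIL1 at 469 to 527 CPM in COAD, and SMAD4, which BxPC-3 lacks, was at 0 counts in all 6 PAAD libraries. Of the BxPC-3 markers, KRT7 was at 969 to 1103 CPM in PAAD and 557 to 695 CPM in TNBC, S100P at 178 to 218 and 99.4 to 123 CPM, and MSLN was no higher in PAAD (70.3 to 95.5 CPM) than in TNBC (85.03 to 119 CPM) or COAD (69.4 to 79.4 CPM). KRT5 and EGFR were high in both TNBC and PAAD and so did not separate those lines, and ERBB2 was at 241 to 286 CPM in TNBC and not below the other lines. ESR1, listed as low in HCC-70, was at 5.51 to 8.18 CPM in TNBC, above the other lines, and PGR was at 0 counts there. Among genes of other cells, the leukocyte gene PTPRC had 0 to 6 counts in any library. The fibroblast gene COL1A1 was at 46.5 to 65.4 CPM in PRAD and at most 18.4 CPM elsewhere. COL3A1, also a fibroblast gene, had 56 to 153 counts in PRAD, 28 to 128 in PAAD and 0 to 2 in COAD and TNBC.

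The promoters of 3 members are shown because BCL2 and BID changed differently among the lines while BAX had nearly the same level in all of them. Each runs from 250 bases before to 50 bases after a RefSeq start site (GRCh38.p14), read 5′ to 3′ on the gene's strand; 8 of the 10 members had at least 1 such entry, MCL1 and BIK had none, and the first of the 5 entries of BID is printed. The BCL2 entry lies at chr18:63319720-63320019 on the minus strand, that of BID at chr22:17774420-17774719 on the minus strand and that of BAX at chr19:48954625-48954924 on the plus strand. Capitals mark matches on either strand to 5 motifs that were searched.
BCL2: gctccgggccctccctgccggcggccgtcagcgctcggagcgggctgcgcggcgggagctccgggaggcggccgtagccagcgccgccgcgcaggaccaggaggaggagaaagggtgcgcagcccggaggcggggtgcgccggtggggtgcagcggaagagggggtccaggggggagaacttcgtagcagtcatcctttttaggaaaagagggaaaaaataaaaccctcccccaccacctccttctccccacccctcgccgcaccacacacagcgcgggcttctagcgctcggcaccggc
BID: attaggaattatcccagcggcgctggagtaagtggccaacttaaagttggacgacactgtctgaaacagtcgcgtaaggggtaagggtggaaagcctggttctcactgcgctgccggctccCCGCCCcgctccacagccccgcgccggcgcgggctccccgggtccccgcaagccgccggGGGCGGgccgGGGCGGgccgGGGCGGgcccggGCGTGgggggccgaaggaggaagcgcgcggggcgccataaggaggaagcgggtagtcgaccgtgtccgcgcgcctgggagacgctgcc
BAX: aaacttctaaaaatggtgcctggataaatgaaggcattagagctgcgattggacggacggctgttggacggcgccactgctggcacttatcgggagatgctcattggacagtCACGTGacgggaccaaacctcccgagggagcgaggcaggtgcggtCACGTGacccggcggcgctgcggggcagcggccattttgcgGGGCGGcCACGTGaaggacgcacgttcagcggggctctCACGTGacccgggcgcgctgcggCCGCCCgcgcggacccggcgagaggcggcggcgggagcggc
The motifs were the GC box (GGGCGG), the E-box (CACGTG), the cyclic AMP response element (TGACGTCA), the ATF4-CHOP element (TGATGNAAT) and the core of the aryl hydrocarbon receptor site (GCGTG). The BAX window held 4 E-boxes and 2 GC boxes, the BID window held 4 GC boxes and 1 match to the receptor core, and the BCL2 window held no match to any of the 5. The BID entries that are not printed differed from each other. Entry 2 held 2 GC boxes and entry 5 held 3, each with 1 E-box and no receptor core. Entry 3 held no match, and entry 4 held 4 GC boxes and 1 receptor core. Of the 35116 promoter entries in the reference, 45.0% held a GC box, 7.26% an E-box, 1.85% the cyclic AMP response element, 0.991% the ATF4-CHOP element and 36.5% the receptor core. A match is a run of letters and not a bound site.

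To see what the cells carried before treatment, levels were set side by side as CPM per kb of exon in the 3 control libraries of each line. MCL1, a short-lived survival protein, was the highest of the 10 members in PAAD at 113 ± 4.63 (SD, n = 3), in TNBC at 110 ± 1.67 and in PRAD at 51.8 ± 1.30 CPM per kb. COAD was different in order, with BCL2L1, the gene of BCL-XL, at 83.0 ± 4.36 and MCL1 at 45.9 ± 0.578 CPM per kb. BCL2 itself was the lowest of the 10 in every line, at 0.273 ± 0.0162 in COAD, 0.694 ± 0.0760 in TNBC, 1.26 ± 0.0144 in PAAD and 1.55 ± 0.164 CPM per kb in PRAD. Over the summed level of the 3 survival genes, BCL2L1 made up 64.3% ± 1.29 (SD, n = 3) in COAD, 33.3% ± 1.35 in PRAD, 26.3% ± 2.04 in PAAD and 15.2% ± 0.767 in TNBC, and BCL2 between 0.211% and 1.94%.

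The control libraries of COAD, PAAD and TNBC, which were counted in a single table, were tested against each other (edgeR's quasi-likelihood test, Benjamini-Hochberg adjusted p under 0.05 over 19930 genes). Between COAD and PAAD 9 of the 10 members differed, against 78.6% of all genes tested. Between COAD and TNBC 9 differed, against 82.8% of all genes, and between PAAD and TNBC 8 differed, against 77.1%. The shares are near those of all genes, so the family is not set apart by them. PRAD came from a separately made table and is given beside the others with no test.

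Among the survival genes, BCL2L1 was lower in PAAD than in COAD (log2 difference PAAD minus COAD -1.03 ± 0.0619 SE, adjusted p = 8.96e-13) and lower again in TNBC (log2 difference TNBC minus PAAD -1.03 ± 0.0632, adjusted p = 1.65e-12). MCL1 was 2.45-fold higher in PAAD than in COAD (adjusted p = 2.81e-16) and 2.40-fold higher in TNBC than in COAD (adjusted p = 3.56e-16). PAAD and TNBC were not told apart for MCL1, with a log2 difference of -0.029 and a 95% interval from -0.13 to 0.072, but with a correction for gene length and GC content TNBC was above PAAD by 0.20 (adjusted p = 0.000205). BCL2 was 4.61-fold higher in PAAD than in COAD (adjusted p = 2.50e-13) and 1.81-fold higher in PAAD than in TNBC (adjusted p = 3.64e-07).

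BAX was the member with the most even level, at 31.1 ± 1.49 in COAD, 31.3 ± 1.87 in PAAD, 33.4 ± 1.35 in TNBC and 24.9 ± 2.09 CPM per kb in PRAD. No pair among COAD, PAAD and TNBC passed the test for BAX by edgeR (unadjusted p = 0.896, 0.116 and 0.148), although the length and GC correction set TNBC above COAD by 0.22 (adjusted p = 0.000295) and above PAAD by 0.13 (adjusted p = 0.0233) on the log2 scale. BAK1, the second pore former, was instead 3.73-fold higher in PAAD than in COAD (adjusted p = 6.44e-16). TNBC exceeded COAD in BAK1 by only 0.24 ± 0.077 (log2 difference, adjusted p = 0.00744), and that call was lost without COAD control replicate 2 (adjusted p = 0.0637). BAK1 made up 59.6% ± 0.798 (SD, n = 3) of the summed effector level in PAAD, against 28.5% ± 1.58 in COAD, 30.5% ± 1.16 in TNBC and 41.3% ± 0.780 in PRAD.

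Among the BH3-only genes, BIK, a BH3-only protein found mostly at the endoplasmic reticulum, led in COAD at 25.4 ± 2.42 and in PRAD at 15.7 ± 2.33 CPM per kb, while BID, the substrate that caspase-8 cleaves, led in TNBC at 24.3 ± 1.36 and stood level with BIK in PAAD at 18.04 ± 1.51 against 17.8 ± 1.81 CPM per kb. BIK was 3.58-fold lower in TNBC than in COAD (adjusted p = 2.12e-13), and BID was 2.75-fold higher in TNBC than in COAD (adjusted p = 6.79e-15). BBC3, which encodes PUMA, a target of p53, was lowest in COAD at 0.717 ± 0.121 and 5.52-fold higher in PAAD (adjusted p = 5.55e-12). BCL2L11, which encodes BIM, was at 3.91 ± 0.410 in PAAD, 7.34 ± 0.196 in COAD, 9.09 ± 0.365 in TNBC and 13.99 ± 0.793 CPM per kb in PRAD. BAD, a sensitizer that binds BCL2 and BCL-XL, was 3.01-fold higher in PAAD than in COAD (adjusted p = 2.05e-08) and ranged from 10.1 to 17.2 CPM per kb in the PAAD controls.

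**Figure D1:**
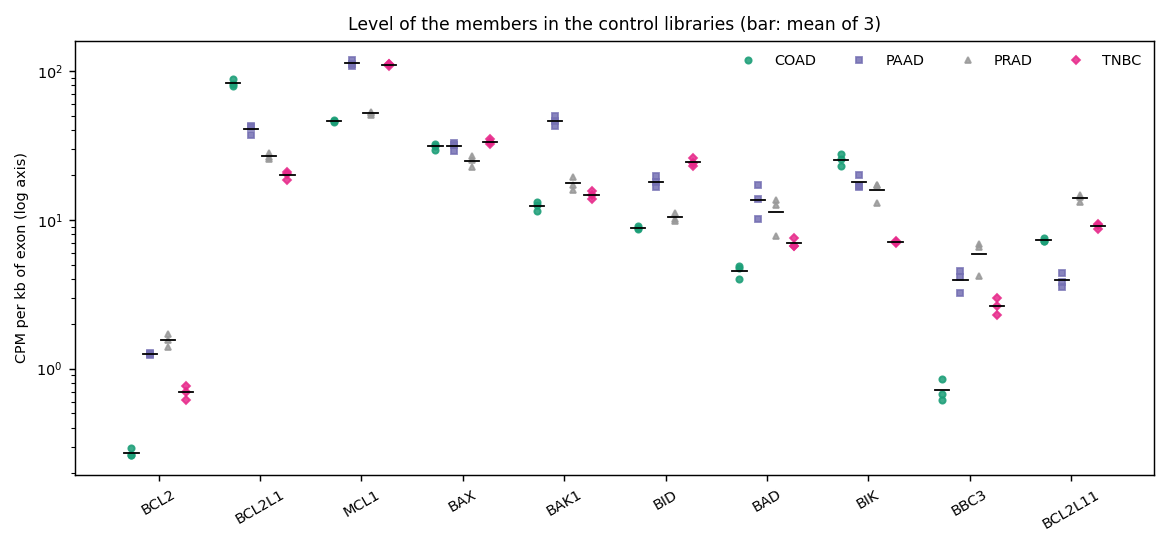
Level of the 10 members in the 3 control libraries of each line, in CPM per kb of exon on a log axis, with a bar at each mean. BCL2 is the lowest member in every line, MCL1 the highest in all but COAD, where BCL2L1 leads, and BAX lies between 22.7 and 34.7 throughout.

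These levels are limited by how exons overlap. BCL2L1 shares 43.0% of its exon bases with the antisense gene ABALON and BAD 23.7% with GPR137, and reads that overlapped both genes were not counted, so both members are underestimated. The shares of the summed survival level also used the full exon length. That of BCL2L1 is therefore underestimated and those of MCL1 and BCL2 overestimated, which their SD does not cover. If all counts of BCL2L1 and BAD are assigned to the unshared bases, BCL2L1 reaches 71.1 in PAAD and 34.9 CPM per kb in TNBC. It moves to the second place among the 10 members in both, while BCL2 stays the lowest in every line. BAD then reaches 17.9 in PAAD, beside BID at 18.04 and BIK at 17.8, and 14.7 CPM per kb in PRAD, beside BIK at 15.7. In PRAD no gene passed 1 count per exonic base (highest 0.995, against 39.1 to 49.0 in the other lines), and MCL1 stood at 0.478 there. Whether this limit lowered the level of MCL1 in PRAD was not tested.

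The largest change of any altered member with Ocoxin was that of BCL2 in TNBC. The 3 TNBC control libraries had 8.96, 8.08 and 7.19 CPM of BCL2, and the 3 Ocoxin libraries had 16.8, 14.8 and 14.6 CPM. Every Ocoxin library was thus above every control library, and BCL2 rose 1.90-fold (log2 fold change 0.93 ± 0.10 SE, n = 3 per group, edgeR adjusted p = 7.08e-05). Of the 1675 genes that rose in TNBC, 93 rose by more. In the lowered direction, BID had 102, 113 and 105 CPM in the controls and 88.5, 84.6 and 81.7 CPM with Ocoxin, again with no overlap, and fell by 0.33 ± 0.051 on the log2 scale (adjusted p = 0.000749). BIK had 6.80, 6.56 and 6.68 CPM in the controls and 5.16, 4.73 and 4.24 CPM with Ocoxin, from 164 to 262 counts a library, and fell by 0.50 ± 0.12 (adjusted p = 0.00921). So 1 survival gene rose and 2 BH3-only genes fell.

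Those 3 of 10 members in TNBC compare with 21% of the 17352 genes tested there (9.65% higher and 11.3% lower), so the count itself is close to the background. The groups did not overlap for 4 members, against 38.1% of all genes. The fourth was MCL1, with 482, 468 and 479 CPM in the controls and 506, 496 and 521 CPM with Ocoxin, a log2 fold change of 0.091 ± 0.033 that missed the threshold (adjusted p = 0.0707). With the replicate number as a block MCL1 passed (adjusted p = 0.00723), and 33.9% of all genes did too. The data did not show the TNBC libraries numbered 1 and 2 to be pairs. The remaining 6 members did not pass: their log2 fold changes ran from -0.14 for BBC3 (95% interval -0.39 to 0.10) to 0.071 for BCL2L11 (-0.044 to 0.19), with BCL2L1 at -0.041 (-0.15 to 0.070), BAX at -0.043 (-0.14 to 0.059) and BAK1 at -0.023 (-0.16 to 0.11). Despite its rise, BCL2 moved only from 0.530% ± 0.0521 (SD, n = 3) to 0.958% ± 0.0782 of the summed level of the 3 survival genes in TNBC.

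In PAAD BCL2 was again the altered member by edgeR, but other settings changed which member passed. Its controls were tightly grouped at 13.8, 14.02 and 13.8 CPM and the Ocoxin libraries at 17.2, 16.6 and 17.2 CPM, without overlap, for a log2 fold change of 0.29 ± 0.084 (adjusted p = 0.0440). This call rests on every library: with any 1 of the 6 left out the adjusted p was 0.0693 to 0.138, although the log2 fold change stayed at 0.28 to 0.31. The call was 1 of 10 members, against 8.33% of all 17280 genes tested. BBC3 had 13.5, 12.2 and 9.66 CPM in the controls and 16.96, 15.5 and 13.4 CPM with Ocoxin, so the groups overlapped slightly (log2 fold change 0.37 ± 0.12, adjusted p = 0.0744). BID had 80.9, 75.5 and 69.3 CPM against 64.8, 67.8 and 65.6 CPM, with no overlap (log2 fold change -0.19 ± 0.066, adjusted p = 0.0967). With the length and GC correction BBC3 (adjusted p = 0.0273) and BID (adjusted p = 0.00589) passed, when 13.9% of all genes did. BBC3 also passed by DESeq2 (adjusted p = 0.0413, against 12.2% of all genes) and without a filter (adjusted p = 0.00920, against 6.0%). BCL2 missed the threshold without a filter (adjusted p = 0.0594) and in the fit over all 24 libraries (adjusted p = 0.0988).

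With the replicate number as a block, 3 members passed in PAAD, against 23.1% of all genes: BCL2 (adjusted p = 0.00781), BBC3 with 0.38 (adjusted p = 0.00120) and BID with -0.18 (adjusted p = 0.00515). The groups did not overlap for 2 of the 10 members, against 27.5% of all genes. MCL1 lay at 0.0035 (95% interval -0.11 to 0.12), BCL2L1 at 0.059 (-0.076 to 0.19), BAX at 0.072 (-0.065 to 0.21) and BAK1 at -0.051 (-0.19 to 0.089), so for these abundant members a change beyond about that range was not seen. BAD, BIK and BCL2L11 had log2 fold changes of -0.077, 0.098 and 0.10, and none passed.

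In COAD, treated at the same 1:700 dilution as TNBC, BID moved the other way. It had 43.6, 42.6 and 43.8 CPM in the controls and 46.2, 54.2 and 56.3 CPM with Ocoxin, with no overlap, and rose by 0.27 ± 0.071 on the log2 scale (adjusted p = 0.0459). The Ocoxin libraries were far more spread than the controls, and the call was lost without Ocoxin replicate 2 (adjusted p = 0.205), Ocoxin replicate 3 (0.146), control replicate 1 (0.134) or control replicate 2 (0.188). It was the only call among the 10, against 2.55% of the 17659 genes tested (259 higher and 192 lower; with the length and GC correction 252 higher and 397 lower, and BID at adjusted p = 0.0677, when 3.68% of all genes passed). The groups did not overlap for 4 members, against 20.6% of all genes: BID, BCL2, BAK1 and BAD.

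BCL2 is hard to measure in COAD, where a library held only 76 to 120 of its counts. The controls had 3.43, 3.45 and 3.73 CPM and the Ocoxin libraries 2.53, 3.03 and 3.01 CPM, a log2 fold change of -0.31 with a 95% interval from -0.67 to 0.047 (adjusted p = 0.399). BBC3 was sparser still, with 2.40, 2.19 and 2.95 CPM against 2.53, 4.73 and 3.64 CPM (log2 fold change 0.53, interval 0.079 to 0.97, adjusted p = 0.223), and it passed only without Ocoxin replicate 1 (adjusted p = 0.0372). BAD had 7.58, 8.94 and 9.14 CPM against 10.3, 11.6 and 10.2 CPM (log2 fold change 0.32, adjusted p = 0.136). BAK1 lay at 0.17 (interval 0.026 to 0.31, adjusted p = 0.222) and BIK at 0.16 (-0.0024 to 0.32, adjusted p = 0.324). MCL1, BAX, BCL2L1 and BCL2L11 lay between -0.032 and 0.090. The median log2 fold change over the 10 members was 0.12 in COAD, against -0.0053 over all genes tested; it was 0.065 in PAAD, -0.0022 in PRAD and -0.036 in TNBC, against 0.0027, 0.0088 and 0.0056 over all genes.

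In PRAD, treated at the least diluted dose, no member was altered by edgeR, against 2.98% of the 17070 genes tested (409 higher and 99 lower; with the length and GC correction 690 higher and 1785 lower, 14.5% in all). DESeq2 altered 0 members too, against 3.61% of all genes, and with the replicate block 0 passed, against 8.5%. With the length and GC correction, however, BCL2L11 passed, its log2 fold change going from -0.10 (95% interval -0.22 to 0.020) to -0.18 (adjusted p = 0.0356). With that correction and the block together BCL2L11 (adjusted p = 0.00484), BCL2L1 at -0.12 (adjusted p = 0.0307) and MCL1 at -0.13 (adjusted p = 0.00798) passed. In that setting 31.9% of all genes passed too. Without the correction, among the members 0 had an unadjusted p under 0.05 and for 0 did the groups not overlap, against 27.6% of all genes. BCL2 had 16.4, 18.3 and 20.2 CPM in the controls and 16.8, 19.95 and 23.8 CPM with Ocoxin (log2 fold change 0.14, 95% interval -0.19 to 0.48). BBC3 had 13.3, 22.01 and 20.8 CPM against 23.4, 20.4 and 20.03 CPM (0.19, -0.23 to 0.60), and control replicate 1, which was low in BBC3, was also low in BAD at 13.2 CPM against 21.4 to 23.1 CPM in the other controls. BAX, like BBC3 a p53 target, lay at -0.042 (-0.20 to 0.12). Of the 10 other p53 targets followed below, 1 rose in PRAD and 0 fell. LNCaP is known to carry wild-type p53 and the other lines mutant forms, which was not read from these data. An effect of p53 was not tested. The intervals of MCL1 (-0.14 to 0.028) and BCL2L1 (-0.17 to 0.073) were narrow, while those of BAD (-0.40 to 0.54) and BIK (-0.40 to 0.20) would hide a change of moderate size.

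**Figure D2:**
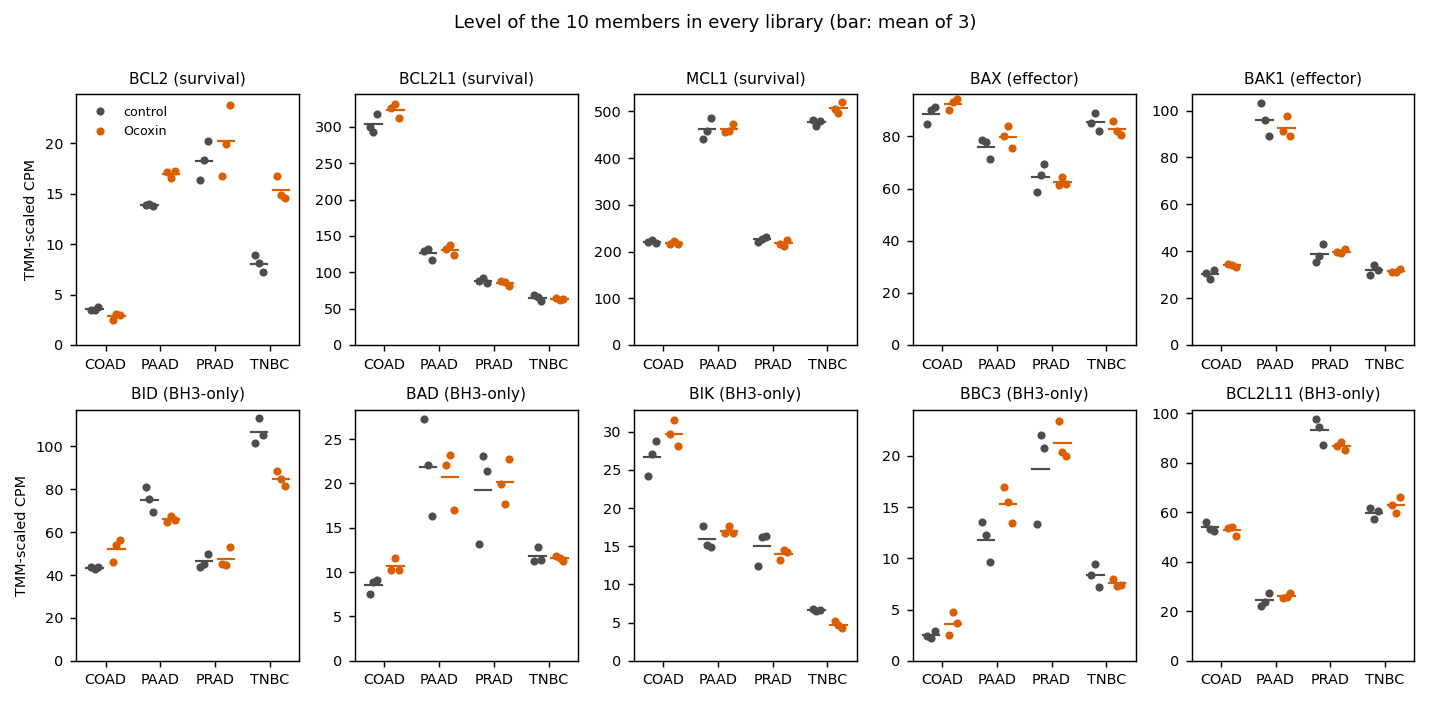
CPM of each member in every library, with control in grey, Ocoxin in orange and a bar at each mean of 3. The Ocoxin points of BCL2 in TNBC (14.6 to 16.8) lie above all controls (7.19 to 8.96), those of BID lie below the controls in TNBC and above them in COAD.

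**Figure D3:**
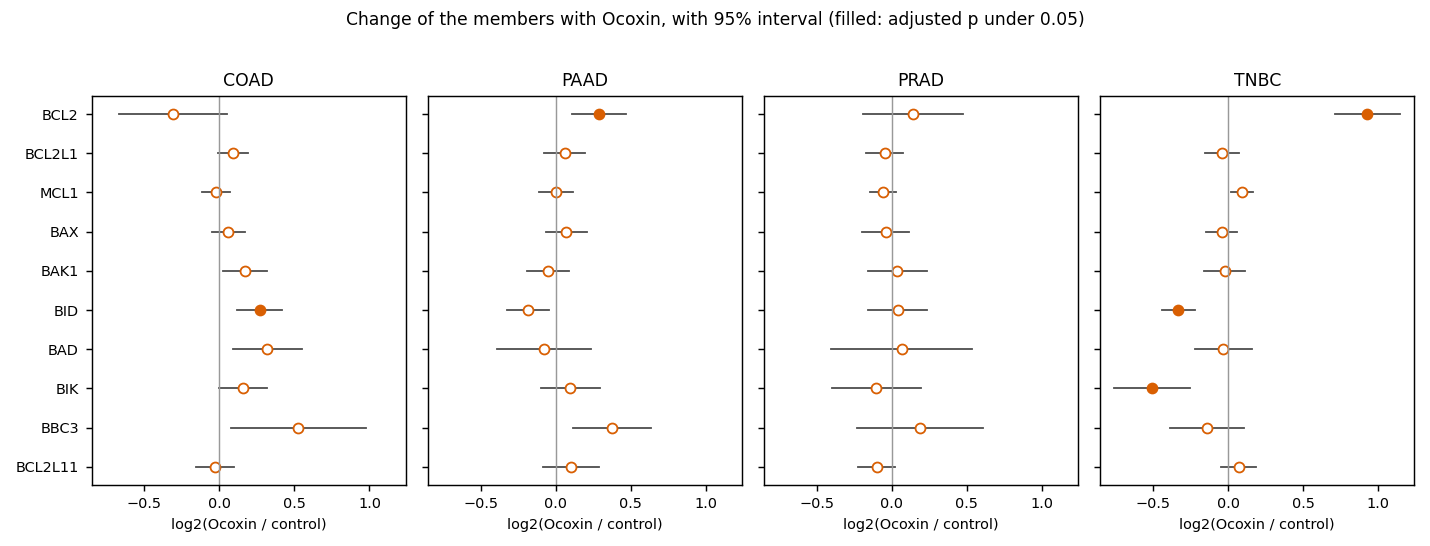
Log2 fold change of each member in each line with its 95% interval, filled where the adjusted p is under 0.05. The 5 filled points are BID in COAD, BCL2 in PAAD, and BCL2, BID and BIK in TNBC, and no point is filled in PRAD.

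Whether a member responded differently among the 4 lines was tested directly, as an interaction over all 24 libraries. BCL2 (adjusted p = 7.78e-05), BID (adjusted p = 0.000289) and BIK (adjusted p = 0.00617) differed, 3 of 10 members against 10.9% of the 24631 genes tested. Among genes with at least 10 counts in every library the same 3 members passed, against a higher share of 21.9%. With the replicate block MCL1 passed too (adjusted p = 0.0251), as did 23.3% of all genes. Since the dilution also differed among the lines, COAD and TNBC, the pair at 1:700, were compared on their own. The BCL2 change was larger in TNBC by 1.23 ± 0.18 (log2, adjusted p = 4.33e-05), and those of BID and BIK were lower in TNBC by 0.61 ± 0.098 (adjusted p = 0.000109) and 0.67 ± 0.14 (adjusted p = 0.00284), with 6.78% of all genes called in that contrast. The share was 16.6% among genes with at least 10 counts in every library. BBC3 gave the largest difference that missed the threshold (-0.68, 95% interval -1.23 to -0.13, adjusted p = 0.131). The same dilution was not the same baseline, since these lines differed in 9 members before treatment. Dose and line cannot be told apart for PAAD and PRAD.

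**Figure D4:**
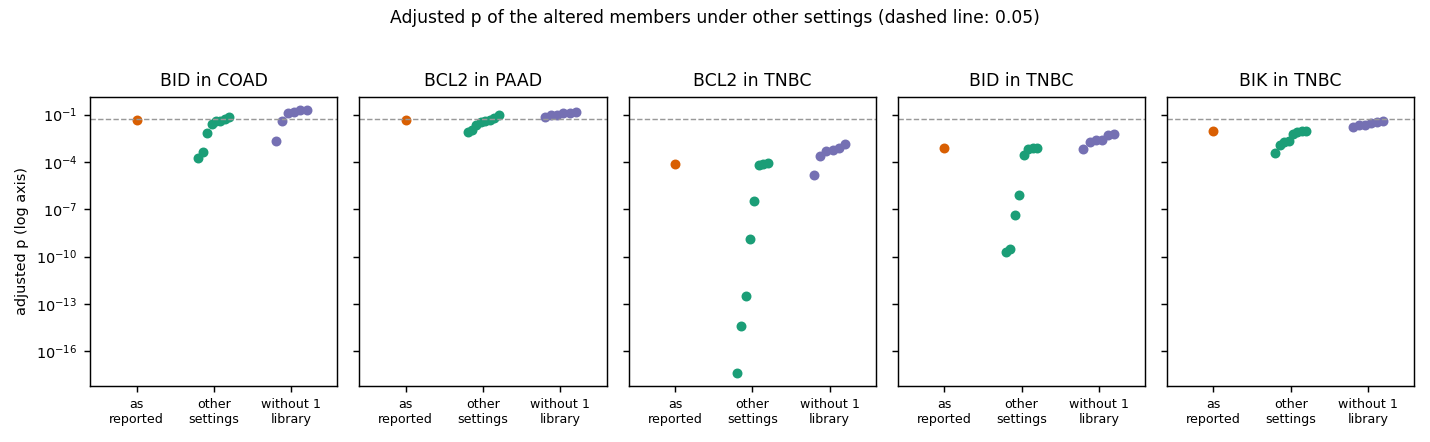
Adjusted p on a log axis of the 5 altered members as reported, under 8 other settings each and with each of 6 libraries left out, with a dashed line at 0.05. The 3 TNBC members stay under the line in every fit, and BID in COAD and BCL2 in PAAD cross it.

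Beside these members, 13 other genes of the BCL2 family were followed, with counts of altered genes read against the shares of all genes given above. In COAD 1 of 10 tested rose and none fell, in PAAD 2 of 13 rose and 1 fell, in PRAD 2 of 10 rose and none fell, and in TNBC none of 12 rose and 3 fell. PMAIP1, which encodes NOXA, the BH3-only partner of MCL1, rose in COAD by 0.35 ± 0.093 (adjusted p = 0.0485), in PAAD by 0.23 ± 0.067 (adjusted p = 0.0473) and in PRAD by 0.44 ± 0.073 (log2, adjusted p = 0.0286). In PRAD its controls had 32.3, 32.3 and 30.6 CPM and its Ocoxin libraries 44.8, 39.8 and 44.9 CPM, so it moved in the line where no member did. In TNBC PMAIP1 lay at -0.11 (95% interval -0.27 to 0.048), and its response differed among the lines (interaction adjusted p = 0.00960). These 3 calls are near the threshold: without 1 library the adjusted p ran up to 0.211 in COAD (lost without control replicates 1 or 2 or Ocoxin replicates 2 or 3), up to 0.205 in PAAD (lost in all but the fit without control replicate 1) and from 0.0573 to 0.0985 in PRAD, where any of the 6 ended it.

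BMF, a BH3-only protein tied to the cytoskeleton, rose in PAAD from 14.9, 12.9 and 12.9 CPM to 27.4, 22.5 and 21.1 CPM (log2 fold change 0.80 ± 0.10, adjusted p = 0.000196). BOK, an effector relative of BAX, fell in TNBC from 33.5, 35.8 and 37.1 CPM to 22.4, 24.3 and 23.8 CPM (-0.59 ± 0.063, adjusted p = 5.75e-05). The mitophagy receptors BNIP3 and BNIP3L fell in TNBC by 2.13 ± 0.25 and 0.55 ± 0.070 on the log2 scale (adjusted p = 0.000446 and 0.000224), and BNIP3L also fell in PAAD by 0.27 ± 0.059 (adjusted p = 0.0104). HRK, a BH3-only gene known mostly from neurons, was expressed in TNBC at 688 to 823 counts a library, against 0 to 12 in COAD and 32 to 58 in PAAD. In PRAD it went from 5, 7 and 6 counts to 15, 18 and 22 counts (log2 fold change 1.59 ± 0.29, adjusted p = 0.0343), which DESeq2 did not call (adjusted p = 0.118) and which any left-out library ended (0.0719 to 0.130). BCL2L2, a survival gene, passed in no line by edgeR, its log2 fold change being -0.087 in COAD and between 0.086 and 0.099 in the other lines. BCL2A1, another survival gene, had 0 to 28 counts and was tested only in PAAD (0.44, interval -0.44 to 1.32).

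**Figure D5:**
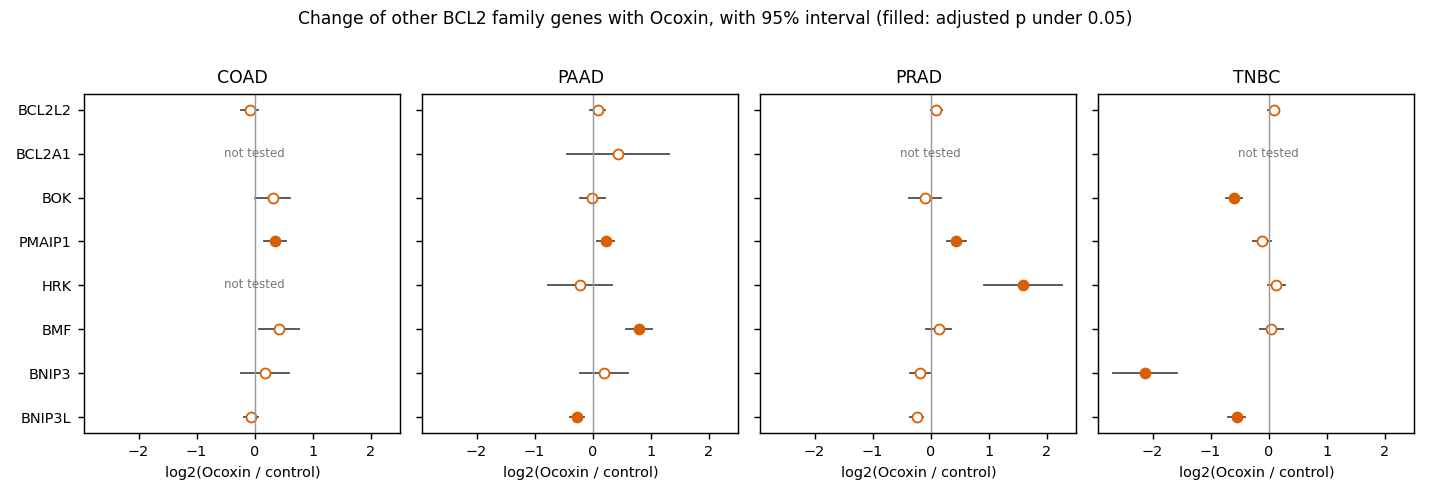
Log2 fold change of 8 other BCL2 family genes in each line with its 95% interval, filled where the adjusted p is under 0.05 and marked where the counts were too low to test. PMAIP1 is filled in COAD, PAAD and PRAD, BMF in PAAD, HRK in PRAD, BOK and BNIP3 in TNBC, and BNIP3L in PAAD and TNBC.

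The genes that act before and after the family were followed as 4 further lists, with counts again read against the shares of all genes given above. Of 19 genes of the apoptosome, the caspases and their inhibitors, 2 rose in COAD (BIRC3 by 0.57 ± 0.070, adjusted p = 6.80e-05, and BIRC2 by 0.20), 2 fell in PAAD (among them CYCS, which encodes cytochrome c, by 0.21), and in TNBC 3 rose and 3 fell, with BIRC6 at 0.24, XIAP at 0.17 and DFFA at 0.14 as those that rose. Among those that fell in TNBC were ENDOG, a mitochondrial nuclease, at -0.92 ± 0.25 (adjusted p = 0.0207), and VDAC1, a channel of the outer membrane, at -0.22. In PRAD none passed by edgeR, where 5 of the 19 had an unadjusted p under 0.05 and DESeq2 called 0. No share of all genes at this unadjusted cut is given, so counts at it are not read as a response. Of 11 genes of the death receptor arm, FAS, the receptor of FAS ligand, rose in PAAD by 0.25 ± 0.069 (adjusted p = 0.0373) and in TNBC by 0.35 ± 0.10 (adjusted p = 0.0323), and TNFSF10, which encodes the ligand TRAIL, fell in PAAD by 0.33 ± 0.073 (adjusted p = 0.0114) and in TNBC by 0.17 ± 0.032 (adjusted p = 0.00287). With TNFRSF10A, a TRAIL receptor, at 0.24, that made 2 higher and 1 lower in PAAD. In TNBC 2 were higher and 3 lower, the others being CFLAR, an inhibitor of caspase-8, at 0.19, TRADD at -0.27 and CASP10 at -0.19. With the length and GC correction CFLAR went to 0.027 in TNBC (adjusted p = 0.696) and TNFSF10 to -0.26 in PAAD (adjusted p = 0.115), and neither passed. With 1 library left out, FAS lost its call in 4 of 6 fits in PAAD and in 5 of 6 in TNBC. None of the 11 passed by edgeR in COAD (3 with an unadjusted p under 0.05) or in PRAD (4), and DESeq2 called 0 in both.

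Of 17 upstream regulators, 2 rose and 1 fell in PAAD, 2 rose and none fell in PRAD, and 3 rose and 3 fell in TNBC, while none passed by edgeR in COAD (1 with an unadjusted p under 0.05, and 1 by DESeq2). DDIT3, the stress factor CHOP, rose in PRAD by 0.74 ± 0.13 (adjusted p = 0.0327) and in TNBC by 0.45 ± 0.080 (adjusted p = 0.00190). ATF3, another stress factor, rose in PRAD by 1.10 ± 0.17 (adjusted p = 0.0257) and fell in TNBC by 0.25 ± 0.070 (adjusted p = 0.0228). MYC rose in PAAD by 0.32 ± 0.068 (adjusted p = 0.00816) and in TNBC by 0.29 ± 0.045 (adjusted p = 0.000922). The others that passed were E2F1 at 0.26 and YWHAZ, a 14-3-3 protein, at -0.20 in PAAD, and HUWE1, a ubiquitin ligase of MCL1, at 0.33, STAT3 at -0.15 and YWHAZ at -0.14 in TNBC. Of 10 p53 targets, 1 rose in COAD, 2 in PAAD and 1 in PRAD, and 2 fell in TNBC. CDKN1A, the cell cycle inhibitor p21, rose in COAD by 0.53 ± 0.11 (adjusted p = 0.0137) and in PAAD by 0.28 ± 0.065 (adjusted p = 0.0146) and fell in TNBC by 1.16 ± 0.061 (adjusted p = 2.99e-07), from 48.1 to 21.5 CPM on average. The other p53 targets that passed were AEN at 0.22 in PAAD, SPATA18 at 0.61 in PRAD and TIGAR at -0.38 in TNBC.

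Over all 5 lists, 70 genes, 4 of 66 tested rose and none fell in COAD, 8 rose and 5 fell of 70 in PAAD, 5 rose and none fell of 67 in PRAD, and 8 rose and 14 fell of 68 in TNBC. With the replicate block the altered genes of the lists numbered 32 in TNBC, 22 in PAAD and 10 in PRAD, against 33.9%, 23.1% and 8.5% of all genes. The median log2 fold change over the lists was 0.020 (COAD), 0.036 (PAAD), 0.0089 (PRAD) and -0.011 (TNBC), against -0.0053, 0.0027, 0.0088 and 0.0056 over all genes. Leaving out 1 library at a time ended at least once 3 of the 4 calls in COAD, 11 of 13 in PAAD, all 5 in PRAD and 8 of 22 in TNBC. The 8 in TNBC were FAS, ENDOG, DFFA, XIAP, TRADD, CASP10, ATF3 and TIGAR. Those kept in all 6 fits were BIRC3 in COAD, BMF and TNFSF10 in PAAD, and 14 in TNBC, among them BNIP3, BNIP3L, BOK, BIRC6, TNFSF10, DDIT3, MYC and CDKN1A. Other settings still ended some calls. The fit over all 24 libraries ended those of BIRC2 in COAD, PMAIP1 and FAS in PAAD, SPATA18 in PRAD, and BIRC6, XIAP, DFFA, TRADD, CASP10, HUWE1 and ATF3 in TNBC. The length and GC correction ended those of TNFSF10 in PAAD and of CFLAR and DFFA in TNBC, and brought BIRC6 to 0.12 and HUWE1 to 0.22 in TNBC, where both still passed. Testing without a filter ended those of ATF3 in PRAD and DFFA in TNBC, and DESeq2 that of HRK in PRAD.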

How the data were processed

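RNA of adhered cells from 24 libraries was sequenced (stranded mRNA libraries). Per the labels and the study's methods, the authors cleaned reads using fastp, mapped them by STAR (build hg38), took out duplicates through picard and summarised them per gene in featureCounts (version 2.0.3 per the file headers) by exon, without strand, as 2 tables (PRAD apart, with other pair settings). The deposited values are raw counts. The study tested them with DESeq2, with false discovery rate correction.

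Letters C and O of the sample titles gave the groups, C read as control and O as Ocoxin as the study explains; no column of a sample was left unused. Counts were tested with edgeR 4.0.16 (R 4.3.3): filterByExpr, TMM, robust quasi-likelihood fit per line, adjusted p under 0.05 over all genes tested, no minimum fold. CPM are TMM-scaled within a line; baseline levels are scaled over the 9 controls of COAD, PAAD and TNBC, and within PRAD. Intervals are 95%. Scripts were tested on simulated data. DESeq2 1.42.0 and the other alternatives are in the closing section.

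The deviations of same-numbered control and Ocoxin libraries were correlated over genes with a mean of at least 10 CPM. The correlations of same-numbered pairs were all above 0.1 in PAAD (0.314 to 0.615), PRAD (0.176 to 0.605) and TNBC (0.285 to 0.629), but not in COAD (0.0813 to 0.503). In TNBC, however, control 2 with Ocoxin 1 gave 0.346, above the same-numbered pairs 1 (0.285) and 2 (0.320). Over all tested genes they were weaker (-0.00513 to 0.407). So the numbers were read as pairs in PAAD and PRAD, from the data and not from the labels. In TNBC the data set only number 3 apart, and reading numbers 1 and 2 as pairs rests on the shared number.

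The text names all 10 members, PMAIP1, HRK, BMF, BOK, BCL2L2 and BCL2A1, and of each other list the altered genes with the largest change, at most 3 each way per line. An item withheld for evaluation is not reported here. Members and lists were chosen with earlier results of these data known.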

Additional observations from a re-analysis of the deposited data

Results flagged for a closer look

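These responses differed among the 4 cell lines by the interaction test (edgeR, adjusted over 24631 genes), which does not separate line from dose. Among the members the adjusted p was 7.78e-05 for BCL2, 0.000289 for BID and 0.00617 for BIK. In the contrast of the lines treated at 1:700, TNBC minus COAD, the difference in log2 change was 1.23 for BCL2, -0.61 for BID and -0.67 for BIK. BCL2 and BID moved in opposite directions in these lines, although the fall of BCL2 in COAD missed the threshold.

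Among other BCL2 family genes the interaction adjusted p was 5.27e-07 for BNIP3, 0.000830 for BOK, 0.00288 for BNIP3L, 0.00497 for BMF, 0.00875 for HRK and 0.00960 for PMAIP1. Among the genes that act before and after the family it was 3.08e-13 for CDKN1A, 0.000112 for E2F1, 0.000294 for BIRC3, 0.00117 for ATF3, 0.00137 for CASP10, 0.00237 for TNFSF10, 0.0117 for MYC, 0.0124 for AEN, 0.0218 for TNFRSF10A, 0.0367 for DFFA and 0.0398 for DDIT3. Groups of 3 libraries are too small to look for a single library far from the others.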

How the results depend on the processing

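The altered members of TNBC, BCL2, BID and BIK, passed in all 14 other fits, and so did their interaction over 33 alternatives (highest adjusted p 0.000559, 0.00194 and 0.0260). The count of altered members was less stable in the lines with calls near the threshold. In COAD it was 2 with the replicate block (BID and BAD, adjusted p = 0.0275 for BAD), 0 when all 24 libraries shared a fit and 0 with the length and GC trend, and 0 to 2 without 1 library. With the block 10.9% of all COAD genes passed. In PAAD it was 2 by DESeq2, 3 with the replicate block, 3 with the trend, 3 with both and 0 in the shared fit, and 0 to 1 without 1 library. The shares of all PAAD genes were 12.2% by DESeq2, 23.1% with the block, 13.9% with the trend and 19.6% with both. Without a filter the altered member in PAAD was BBC3 in place of BCL2. In PRAD it was 1 with the trend (BCL2L11) and 3 with trend and block (BCL2L11, BCL2L1 and MCL1, all lower), and 0 without any 1 library. The shares of all PRAD genes were 14.5% with the trend and 31.9% with trend and block. The trend and trend with block put the members with a different response at 5 (BCL2L11 and MCL1 added), when 16.3% and 28.7% of all genes passed. The length and GC trend lowers the median of all PRAD genes to -0.062, and the cause was not tested.

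The other apoptosis genes altered were 8 in COAD with the block and 9 with trend and block (1 to 7 without 1 library), 22 and 23 in PAAD (2 to 12), and in PRAD 10 with the block, 13 with the trend and 27 with both (0 to 3). In TNBC they ran from 15 to 21 without 1 library. Of all genes, the block called 10.9% in COAD, 23.1% in PAAD and 8.5% in PRAD. The trend called 14.5% in PRAD, and trend and block together 14.5% in COAD, 19.6% in PAAD and 31.9% in PRAD. The counts are thus higher in settings that call more of all genes. No share of all genes is given for the fits without 1 library. At baseline the counts of members that differed stayed within 8 to 10.

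Signs turned only for values that had not passed. With the trend, and with trend and block, BAX in COAD went to -0.0091 and -0.0087, BAK1 in PRAD to -0.042 and -0.039, BID in PRAD to -0.011 and -0.011, BAD in PRAD to -0.015 and -0.016, BAK1 in TNBC to 0.011 and 0.0098, and BAD in TNBC to 0.032 and 0.032. BOK in PAAD went to 0.0047 with the block, the baseline difference of BAX between PAAD and COAD to -0.00080 with 10 counts in every library, and that of MCL1 between TNBC and PAAD to 0.20 with the trend. Without 1 library the ranges that crossed 0 were -0.044 to 0.0074 for BCL2L11 in COAD, -0.029 to 0.037 for MCL1 in PAAD, -0.11 to 0.0039 for BAK1 in PAAD, -0.25 to 0.11 for BAD in PAAD, -0.12 to 0.077 for BOK in PAAD, -0.11 to 0.0040 for BAX in PRAD, -0.028 to 0.11 for BAK1 in PRAD, -0.044 to 0.084 for BID in PRAD, -0.14 to 0.21 for BAD in PRAD, -0.0093 to 0.31 for BBC3 in PRAD, -0.068 to 0.029 for BAK1 in TNBC, -0.062 to 0.033 for BAD in TNBC, -0.020 to 0.14 for BMF in TNBC, -0.034 to 0.062 for the baseline difference of BAX, PAAD minus COAD, -0.056 to 0.0014 for the baseline difference of MCL1, TNBC minus PAAD and -0.20 to 0.0062 for the baseline difference of BOK, TNBC minus PAAD.

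Over all genes the block raised the calls from 451 to 1925 in COAD, from 1440 to 3998 in PAAD, from 508 to 1451 in PRAD and from 3644 to 5878 in TNBC, and those of the interaction from 2689 to 5750. With the trend they were 2396 in PAAD and 2475 in PRAD, and with trend and block 2567 in COAD, 3384 in PAAD, 5446 in PRAD, 5720 in TNBC and 7073 for the interaction. In COAD same-numbered libraries did not all deviate together, so there the block rests on a shared number only. In TNBC control 2 deviated more with Ocoxin 1 than with Ocoxin 2, so for those numbers the block rests on the number too. PRAD libraries were shallower, and COAD libraries held few counts of BCL2 and BBC3. With PRAD counts corrected for reads that share a start, chosen after seeing the data, 0 members were altered in PRAD.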
